A study of Mus musculus with 10 samples.

Results

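The matrix metalloproteinases and their inhibitors were read as 10 genes, chosen by gene symbol in the deposited normalized table, of 21211 named genes on the array. There were 7 metalloproteinases (Mmp2, Mmp3, Mmp9, Mmp10, Mmp13, Mmp14 and Mmp19) and 3 inhibitors (Timp1, Timp2 and Timp3), read by 13 of the array's 41174 probes. RNA came from 10 untreated lines of mouse small cell lung cancer that the labels call non-NE, 5 labelled Mes and 5 labelled Epi, and each was hybridised to 1 single-colour Agilent array. Every line was expanded from a single picked clone and grown in RPMI1640 medium with serum. All 10 carried the background RbL/L, Trp53L/L, a common way to write alleles of Rb and Trp53 flanked by loxP sites. Mes and Epi were not spelled out in the labels, nor was the tumour of origin of each clone, and the p-values therefore cover only the spread between these lines, which may be technical.

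Matrix metalloproteinases are zinc-dependent proteases that cut collagens, laminins, proteoglycans and other proteins outside the cell or at its surface. Most are secreted as inactive proenzymes and are activated by removal of a propeptide. The Timp proteins bind the active site of these enzymes and block it, and in tumours the balance between both classes bears on invasion and on the release of growth factors from the matrix. RNA levels report neither secretion nor activation.

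The labelled cell types were set against marker lists. All 8 mesenchymal markers were well above background on all 10 arrays. Their linear signals summed to 88790 to 137100 in the Mes lines and to 93620 to 137100 in the Epi lines. Of 8 epithelial markers, 3 were above background on at least 1 Mes array and 5 on at least 1 Epi array, whereas Epcam, Cldn4 and Esrp1 were on none. Their summed linear signal ran from 24.2 to 62.5 in the Mes lines and from 40.1 to 923 in the Epi lines. Endothelial markers, of which 3 and 4 of 6 were above background in any Mes and any Epi line, summed to 17.1 to 37.8 and to 40.8 to 91.1. The part of these lists in the results was not tested. Of 7 neuroendocrine markers, 5 were above background in any Mes line, 4 in any Epi line and 3 on all 10 arrays, with summed signals of 1724 to 41550 and 509 to 9130, while Insm1 and Neurod1 were on none. Of 8 leukocyte markers, 5 were above background in any Mes line, 6 in any Epi line and 3 on all 10 arrays, with summed signals of 98.3 to 125 and 99.0 to 188, while Itgam and Lyz2 were on none. The endothelial markers Cdh5 and Pecam1 were on none either. Of 5 fibroblast markers, 3 were above background in any Mes line, 4 in any Epi line and 2 on all 10 arrays. They summed to 7392 to 15620 in the Mes and to 8929 to 21140 in the Epi lines, with Col14a1 on none. Between 60.4% and 64.4% of probes were well above background on an array, and no spot was saturated. The arrays lay on 3 slides, of which the first held Epi1, Epi3, Epi4 and Epi5, the second Mes3, Mes4 and Epi2, and the third Mes1, Mes2 and Mes5. Only the second slide held both groups, and values within it rest on Epi2 as its single Epi line. Fitting slide as a block over all arrays gives the same differences as that slide alone.

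RefSeq promoter windows of GRCm38.p6, from 250 bases before the annotated start to 50 after it, were matched for 7 of the 10 genes. Each was searched for the AP-1 heptamers TGACTCA and TGAGTCA, which are reverse complements of each other, for TATAAA, and for the GC box GGGCGG, on both strands, and these motifs do not overlap each other. Mmp3, Mmp10 and Mmp13, which lie in 1 cluster on chromosome 9, each held an AP-1 heptamer followed downstream by TATAAA. Mmp14, Timp1, Timp2 and Timp3 held neither and had 1 or 2 GC boxes. Of 32851 promoter windows of the same length, 5.2% held an AP-1 heptamer, 13.6% TATAAA and 35.7% a GC box. The 3 cluster promoters (chr9:7445572-7445871, chr9:7502092-7502391 and chr9:7272264-7272563, all on the plus strand) are shown because the order of their motifs is the same, with the AP-1 heptamer and TATAAA in capitals.
Mmp3: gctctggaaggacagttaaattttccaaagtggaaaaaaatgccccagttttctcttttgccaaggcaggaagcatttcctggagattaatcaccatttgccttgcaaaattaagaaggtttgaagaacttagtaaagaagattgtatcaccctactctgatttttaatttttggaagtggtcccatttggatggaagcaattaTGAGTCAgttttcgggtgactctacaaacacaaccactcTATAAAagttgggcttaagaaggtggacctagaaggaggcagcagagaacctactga
Mmp10: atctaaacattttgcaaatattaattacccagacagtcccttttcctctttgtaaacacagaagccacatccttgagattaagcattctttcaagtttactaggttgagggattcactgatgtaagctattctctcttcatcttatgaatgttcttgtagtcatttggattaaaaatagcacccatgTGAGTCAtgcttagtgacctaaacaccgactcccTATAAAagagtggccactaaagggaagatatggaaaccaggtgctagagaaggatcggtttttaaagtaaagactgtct
Mmp13: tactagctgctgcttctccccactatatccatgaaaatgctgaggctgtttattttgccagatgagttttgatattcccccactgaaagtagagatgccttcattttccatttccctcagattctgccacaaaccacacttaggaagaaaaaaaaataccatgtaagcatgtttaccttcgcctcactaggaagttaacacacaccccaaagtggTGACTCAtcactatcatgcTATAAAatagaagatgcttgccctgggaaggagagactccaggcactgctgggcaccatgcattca
The Mmp14 window (chr14:54431348-54431647) and the Timp1 window (chrX:20869916-20870215), both on the plus strand, are shown as the contrasting kind, with GC boxes in capitals.
Mmp14: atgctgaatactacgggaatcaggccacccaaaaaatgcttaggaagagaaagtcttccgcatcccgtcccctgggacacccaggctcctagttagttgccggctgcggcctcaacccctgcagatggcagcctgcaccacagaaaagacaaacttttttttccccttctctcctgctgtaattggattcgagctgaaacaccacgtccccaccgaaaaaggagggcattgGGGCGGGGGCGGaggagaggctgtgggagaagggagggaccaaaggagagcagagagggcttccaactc
Timp1: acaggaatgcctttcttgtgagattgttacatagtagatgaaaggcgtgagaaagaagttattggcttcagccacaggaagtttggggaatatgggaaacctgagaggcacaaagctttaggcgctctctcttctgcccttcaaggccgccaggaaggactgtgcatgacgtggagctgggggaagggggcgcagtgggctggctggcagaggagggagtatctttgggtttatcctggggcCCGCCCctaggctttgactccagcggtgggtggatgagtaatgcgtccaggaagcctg
The AP-1 heptamer lay at -46 to -40 from the annotated start in Mmp3, at -63 to -57 in Mmp10 and at -35 to -29 in Mmp13. TATAAA lay at -7 to -2, at -29 to -24 and at -16 to -11 in the same order. Mmp14 held adjoining GC boxes at -19 to -14 and -13 to -8, and Timp1 held 1 at -8 to -3 on the minus strand. A match is a run of letters and was not measured as a bound site here.

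**Figure D1:**
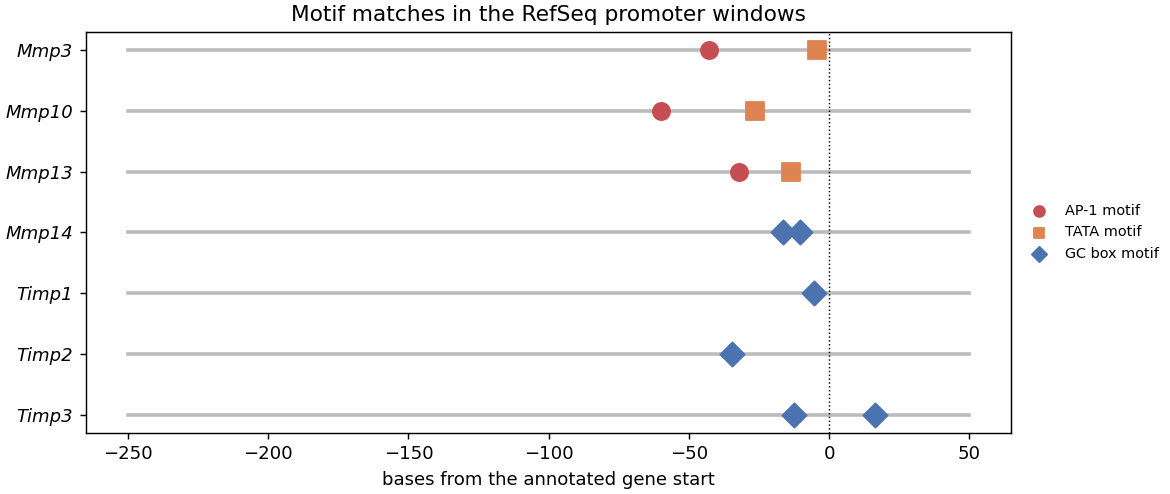
Motif matches in the promoter windows of 7 genes, by distance in bases from the annotated gene start (dotted line); each symbol is 1 match. AP-1 and TATA motifs appear in Mmp3, Mmp10 and Mmp13, and GC boxes in Mmp14, Timp1, Timp2 and Timp3.

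Signals are given as log2 of the quantile-normalized signal, raised to a floor of 1 before the logarithm, and differences are Mes minus Epi on that scale. Tests were limited to probes that the scanner software called well above background on all 5 arrays of either group. Of the 13 probes, 8 were tested, from Mmp3, Mmp14, Mmp19, Timp1, Timp2 and Timp3. The other 5, from Mmp2, Mmp9, Mmp10 and Mmp13, were each above background on at least 1 array but never on all arrays of a group. The Mmp14, Mmp19, Timp1, Timp2 and Timp3 probes were above background on all 10 arrays. The 3 cluster genes with AP-1 and TATA motifs were above background on 7, 1 and 1 of the 10 arrays (Mmp3, Mmp10 and Mmp13), and the 4 genes with GC boxes on every array. No promoter window was matched for Mmp2, Mmp9 and Mmp19, and a link between motif and detection was not tested.

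In limma's test, 4 of the 8 tested probes were lower in the Mes lines (Mmp14 by 1 of its 2 probes, Mmp19, Timp1 by 1 of its 2 probes, and Timp2) and 0 were higher. Over all 24475 tested probes, 6770 were called (27.7%), 12.1% as lower and 15.6% as higher in the Mes lines. At an unadjusted p under 0.05 the member probes numbered 6 lower and 1 higher (Mmp3, which met the detection filter only through the Mes lines). Counted by gene, with the brightest tested probe for each, 3 of 6 were lower (Mmp19, Timp1 and Timp2) and 0 higher, beside 12.7% lower and 15.7% higher among 13202 genes. The median difference of the 6 genes was -0.72, and that of all tested genes 0.03. The adjusted p-values of the 4 called probes lay between 0.0242 and 0.0456, close to the threshold of 0.05. In 0 of the 8 tested member probes were the ranges of the groups apart, beside 18.3% of all tested probes. The ranges also overlapped in the member probes that were not tested. In bulk cultures, fewer cells of a kind and less RNA per cell cannot be told apart.

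**Figure D2:**
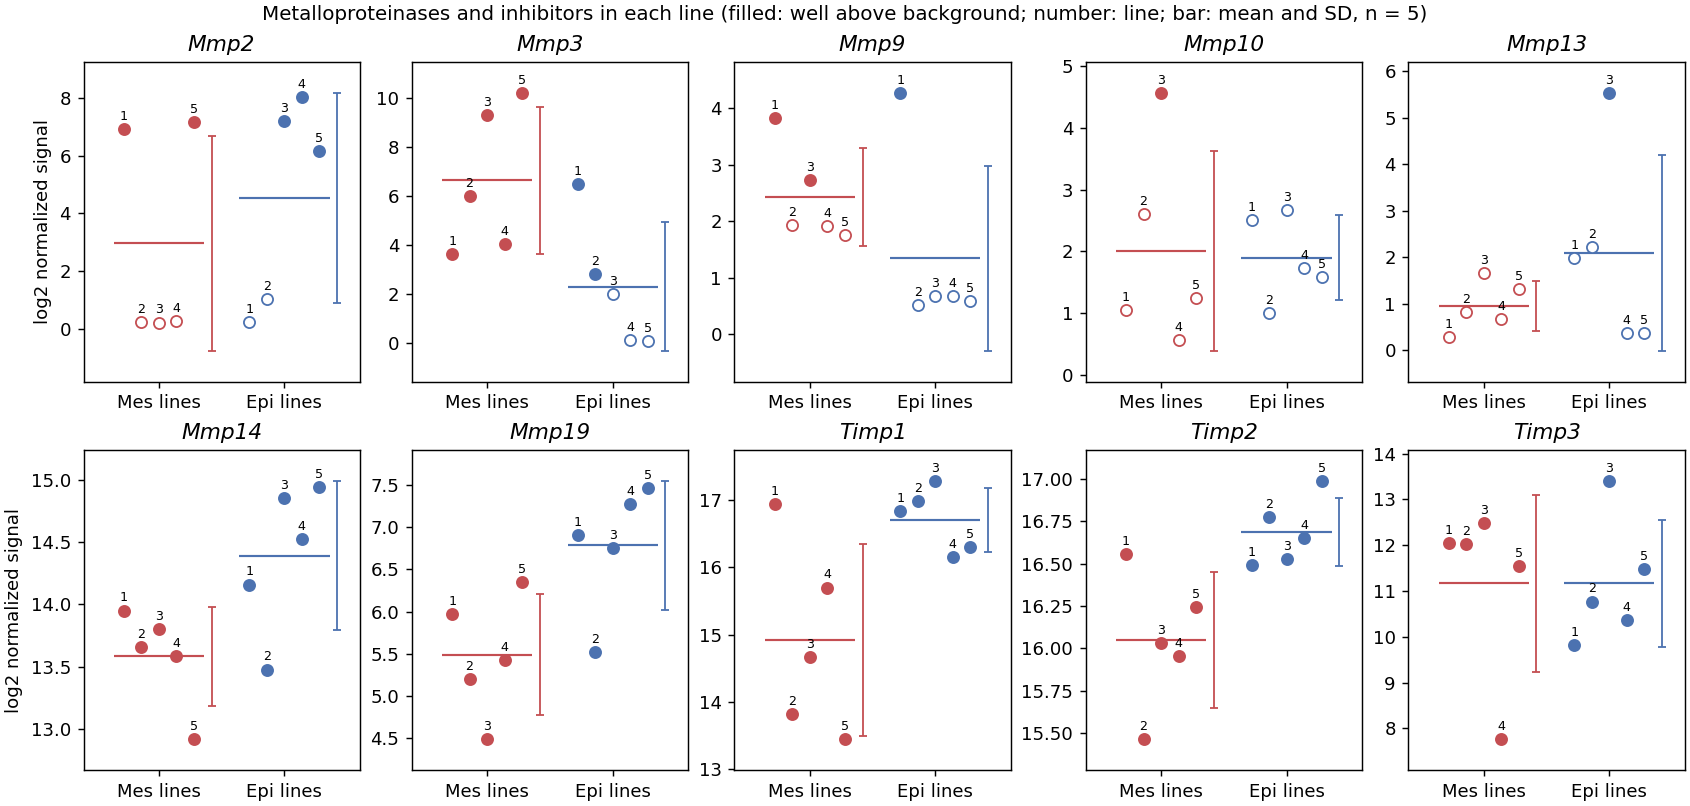
Log2 normalized signal (y axis) of the brightest probe of each gene in the 5 Mes and 5 Epi lines, numbered by line; filled points were well above background, horizontal lines are means and vertical bars SDs (n = 5). Mmp2 splits both groups, Mmp3 spans 10.1 log2 units over the lines, and Timp1 in Mes1 lies among the Epi lines.

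Mmp2 and Mmp9 are the gelatinases, which cut denatured collagen and basement membrane collagen. Mmp2 (probe A_51_P341736, chr8:95376840-95376899, mm9) read 6.92, 0.24, 0.23, 0.28 and 7.17 in Mes1 to Mes5. It read 0.25, 1.03, 7.20, 8.03 and 6.15 in Epi1 to Epi5. The gene was thus either well above background, in Mes1, Mes5, Epi3, Epi4 and Epi5, or not above it, in the other 5 lines, with no line between 1.03 and 6.15. Both labels held both states (2 of 5 Mes and 3 of 5 Epi lines above background), and the probe was not tested. The means were 2.97 ± 3.72 in the Mes and 4.53 ± 3.63 in the Epi lines (SD, n = 5), and with no filter on dim probes limma gave an adjusted p of 0.696.

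Mmp9 (probe A_51_P401797, chr2:164780303-164780362, mm9) read 3.83, 1.93, 2.73, 1.92 and 1.76 in Mes1 to Mes5 and 4.27, 0.51, 0.68, 0.67 and 0.59 in Epi1 to Epi5. Only Mes1, Mes3 and Epi1 were above background. Its second probe (A_52_P507214, chr2:164780620-164780679, mm9) was above background in Mes1, at 3.1, and in Epi1, at 3.92, and in no other line. Epi1 and Mes1 were the highest 2 lines on both probes. Without a filter the adjusted p was 0.408 for the first probe and 0.733 for the second.

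Mmp3 and Mmp10 are stromelysins, which degrade proteoglycans, laminin and fibronectin and can activate other proenzymes of the family. Mmp3 (probe A_51_P255699, chr9:7455751-7455810, mm9) read 3.66, 5.99, 9.31, 4.04 and 10.20 in Mes1 to Mes5. In Epi1 to Epi5 it read 6.49, 2.84, 2.0, 0.12 and 0.11. Mes5 and Mes3 were highest, Epi1 lay above Mes1, Mes2 and Mes4, and Epi3, Epi4 and Epi5 were not above background. The spread of 10.1 over the lines was larger than that of 99.7% of tested probes, whose median was 1.28. It runs down to Epi values below background.

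The Mmp3 probe met the detection filter only through the Mes lines, with 2 of 5 Epi lines above background. Its means were 6.64 ± 2.99 in the Mes lines and 2.31 ± 2.62 in the Epi lines (SD, n = 5). The difference of 4.33 (SE 1.55, 95% interval 0.89 to 7.77) did not pass limma's test, with an adjusted p of 0.0606. It passed without Mes1 (5.07, adjusted p = 0.0372) and without Epi1 (5.37, adjusted p = 0.0219), and with slide as a random block (4.35, adjusted p = 0.0445). The size leaned on values below background: with a floor of 16 before the logarithm it was 2.21 (adjusted p = 0.246), and after normexp background correction 1.19 (adjusted p = 0.202). Within the second slide the difference was 3.83 (adjusted p = 0.492).

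Mmp10 (probe A_51_P120830, chr9:7510011-7510070, mm9) read 1.05, 2.61, 4.57, 0.57 and 1.25 in Mes1 to Mes5 and 2.51, 1.0, 2.67, 1.73 and 1.58 in Epi1 to Epi5. Mes3, one of the 2 lines highest in Mmp3, was the single line above background. Mmp13, a collagenase that cuts fibrillar collagens (probe A_51_P184484, chr9:7282762-7282821, mm9), read 0.29, 0.82, 1.67, 0.68 and 1.33 in Mes1 to Mes5 and 1.98, 2.23, 5.54, 0.37 and 0.38 in Epi1 to Epi5. Epi3 was the single line above background. Mmp3, Mmp10 and Mmp13 therefore peaked in different lines, Mes5, Mes3 and Epi3. Without a filter, the adjusted p was 0.963 for Mmp10 and 0.471 for Mmp13.

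The cluster on chromosome 9 was read by 9 probes of 8 metalloproteinase genes between 7282762 and 7697700 (mm9). Mmp3, Mmp10 and Mmp13 were the 3 genes above background on any array, and the other 5 (Mmp1a, Mmp7, Mmp8, Mmp12 and Mmp20) were on none. Chromosome 9 as a whole was higher in the Mes lines for 60.3% of its tested probes, and the part of that shift in the Mmp3 difference was not tested. Within 2 Mb of the cluster, 3 of 11 other tested genes were higher in the Mes lines, 0 were lower (1 at an unadjusted p under 0.05) and 8 were not called.

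By the brightest tested probe of each gene, the nearest neighbours were Dcun1d5, Tmem123, Birc2 and Birc3. Dync2h1, a cilium motor gene, has other tested probes as near as -292.9 kb from Mmp3. It was higher in the Mes lines on all 7 of its tested probes, by 0.58 to 1.68. The largest value came from a probe that met the detection filter through the Mes lines, with 1 of 5 Epi lines above background. The other tested probes gave 0.58 to 1.15. Dcun1d5, a neddylation factor at -249 kb from the Mmp3 probe, was higher by 0.87 (SE 0.13, adjusted p = 0.00161). Birc3, an inhibitor of apoptosis at 393.1 kb, was higher by 4.45 (SE 1.22, adjusted p = 0.0222). It met the detection filter through the Mes lines, and with 3 of 5 Epi lines above background the size of its difference rests in part on Epi values below it. Between Mmp3 and Birc3, Tmem123 differed by -0.21 (adjusted p = 0.684) and Birc2 by 0.44 (adjusted p = 0.290), neither of which passed. Birc3 read 7.23, 6.84, 4.44, 1.31 and 0.64 in Epi1 to Epi5. For both Birc3 and Mmp3, Epi1 was the highest Epi line and Epi2 the next, while among the Mes lines Birc3 was highest in Mes1 (9.71), where Mmp3 was lowest.

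**Figure D3:**
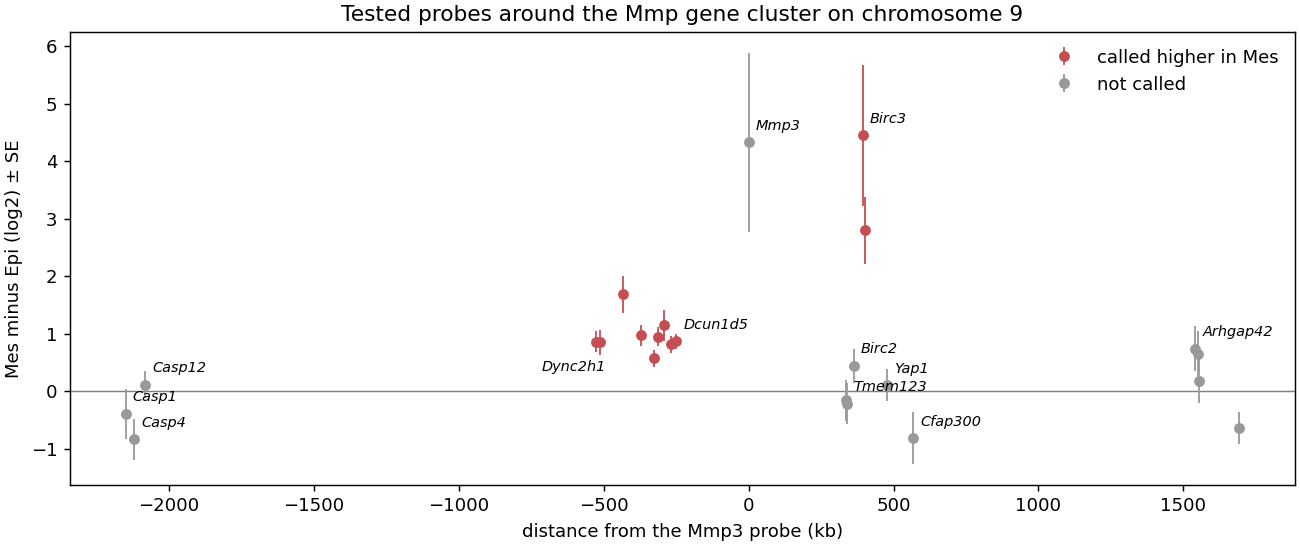
Mes minus Epi difference in log2 signal (y axis, bars are SE) of tested probes by distance from the Mmp3 probe in kb (x axis). Red probes were called higher in the Mes lines and grey ones were not called. Mmp3 (4.33) and Birc3 (4.45) have the largest differences and the widest errors, and both met the detection filter only through the Mes lines.

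Mmp14 is a membrane-anchored metalloproteinase that cuts collagen at the cell surface and activates the Mmp2 proenzyme. It was above background in all 10 lines on both probes. Probe A_52_P304128 (chr14:55058775-55058834, mm9) read 9.70, 9.61, 9.54, 9.32 and 8.85 in Mes1 to Mes5 and 10.42, 9.41, 11.10, 10.68 and 11.28 in Epi1 to Epi5. Epi5, Epi3, Epi4 and Epi1 lay above every Mes line and Epi2 lay among them. Those above were the lines of the first slide, so line and slide cannot be told apart here. The means were 9.40 ± 0.34 and 10.58 ± 0.74 (SD, n = 5), a difference of -1.18 (SE 0.33, adjusted p = 0.0242), or a level 2.26-fold higher in the Epi lines.

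The brighter Mmp14 probe (A_51_P216303, chr14:55059969-55060028, mm9) read 13.95, 13.66, 13.80, 13.59 and 12.92 in the Mes lines and 14.16, 13.48, 14.86, 14.53 and 14.95 in the Epi lines. The order of the Epi lines was the same, but the difference of -0.81 (SE 0.30, adjusted p = 0.0643) did not pass. The mean of both probes differed by -0.99 (adjusted p = 0.0380). Without Epi2 the brighter probe also passed (-1.04, adjusted p = 0.0126). On the dimmer probe the call was lost without Mes5, Epi3, Epi4 or Epi5, with adjusted p-values from 0.0513 without Mes5 to 0.0608 without Epi3. Within the second slide, where Epi2 stood for the Epi lines, the differences were 0.02 (adjusted p = 0.972) on the dimmer and 0.22 (adjusted p = 0.685) on the brighter probe.

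Mmp19, a secreted enzyme that cuts basement membrane components (probe A_51_P269166, chr10:128236221-128236280, mm9), read 5.98, 5.20, 4.49, 5.43 and 6.35 in Mes1 to Mes5 and 6.91, 5.52, 6.76, 7.28 and 7.46 in Epi1 to Epi5. As with Mmp14, all Epi lines but Epi2 lay above every Mes line, and these were again the lines of the first slide. The means were 5.49 ± 0.72 and 6.79 ± 0.76 (SD, n = 5), and the difference was -1.30 (SE 0.42, adjusted p = 0.0420), 2.46-fold higher in the Epi lines. The call held without Mes1, Mes5 or Epi2 and was lost without any of the other 7 lines (adjusted p from 0.0728 without Epi1 to 0.0951 without Epi5). It was also lost with normexp correction, where the difference was -0.43 (adjusted p = 0.0602), and within the second slide it was -0.56 (adjusted p = 0.598). Of tested probes on chromosome 10, 39.1% were lower in the Mes lines, and the part of that shift in the Mmp19 difference was not tested.

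Timp1 is a secreted inhibitor of most metalloproteinases and also acts as a growth factor. Probe A_52_P87713 (chrX:20451675-20451733, mm9) read 16.94, 13.82, 14.66, 15.70 and 13.45 in Mes1 to Mes5 and 16.84, 16.99, 17.28, 16.15 and 16.30 in Epi1 to Epi5. Mes1 lay among the Epi lines and the other 4 Mes lines lay below all of them. The means were 14.91 ± 1.43 and 16.71 ± 0.48 (SD, n = 5), a difference of -1.80 (SE 0.59, adjusted p = 0.0456), 3.47-fold higher in the Epi lines. Within the Mes lines the signal spread over 3.50 log2 units, and within the Epi lines over 1.14.

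The second Timp1 probe (A_51_P512384, chrX:20449905-20449964, mm9) read 14.20, 10.38, 11.32, 12.31 and 10.15 in the Mes lines and 13.84, 14.07, 14.35, 13.05 and 13.19 in the Epi lines. It placed the Mes lines in the same order, and its difference of -2.02 (SE 0.69, adjusted p = 0.0501) just missed the threshold. Without Mes1 the differences were -2.30 (adjusted p = 0.00545) and -2.65 (adjusted p = 0.00347), and both probes passed. The first probe's call also held without Mes4 (adjusted p = 0.0491) and was lost without any of the other 8 lines. Those adjusted p-values ran from 0.0619 without Epi4 to 0.101 without Mes2. That call was also lost with normexp correction (adjusted p = 0.0685), a floor of 16 (0.0674) and dim probes kept (0.0855). Within the second slide the differences were -1.81 (adjusted p = 0.286) and -2.26 (adjusted p = 0.262), as large as over all lines.

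Timp2 inhibits metalloproteinases and also takes part, with Mmp14, in activating the Mmp2 proenzyme at the cell surface. Probe A_52_P540219 (chr11:118163146-118163205, minus strand, mm9) read 16.56, 15.46, 16.03, 15.95 and 16.24 in Mes1 to Mes5 and 16.49, 16.77, 16.53, 16.65 and 16.99 in Epi1 to Epi5. Mes1 lay within the Epi range and the other 4 Mes lines below it. The means were 16.05 ± 0.40 and 16.69 ± 0.20 (SD, n = 5), a difference of -0.64 (SE 0.20, adjusted p = 0.0376), 1.56-fold higher in the Epi lines. The call held without Mes1, Mes5 or Epi1 and was lost without any of the other 7 lines (adjusted p from 0.0582 without Epi3 to 0.0865 without Epi5). The difference was -0.94 with scaling by the 75th percentile (adjusted p = 0.0104), and -0.78 within the second slide. The call was also lost with dim probes kept (adjusted p = 0.0578) and with replicate number as a block (adjusted p = 0.0764).

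Timp3 is the inhibitor that stays bound to the extracellular matrix. Probe A_51_P463765 (chr10:85811696-85811755, mm9) read 12.04, 12.03, 12.48, 7.77 and 11.54 in Mes1 to Mes5 and 9.82, 10.77, 13.40, 10.36 and 11.49 in Epi1 to Epi5. Epi3 was highest and Mes4 lowest, with the next Mes line at 11.54. The means of 11.17 ± 1.93 and 11.17 ± 1.39 (SD, n = 5) differed by 0.0046 (SE 0.93, 95% interval -2.06 to 2.07, adjusted p = 0.997). The spread over the lines, 5.63 log2 units, was larger than that of 96.3% of tested probes, so Timp3 varied between lines without following the labels. Without Mes4 the difference was 0.86 (adjusted p = 0.349).

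**Figure D4:**
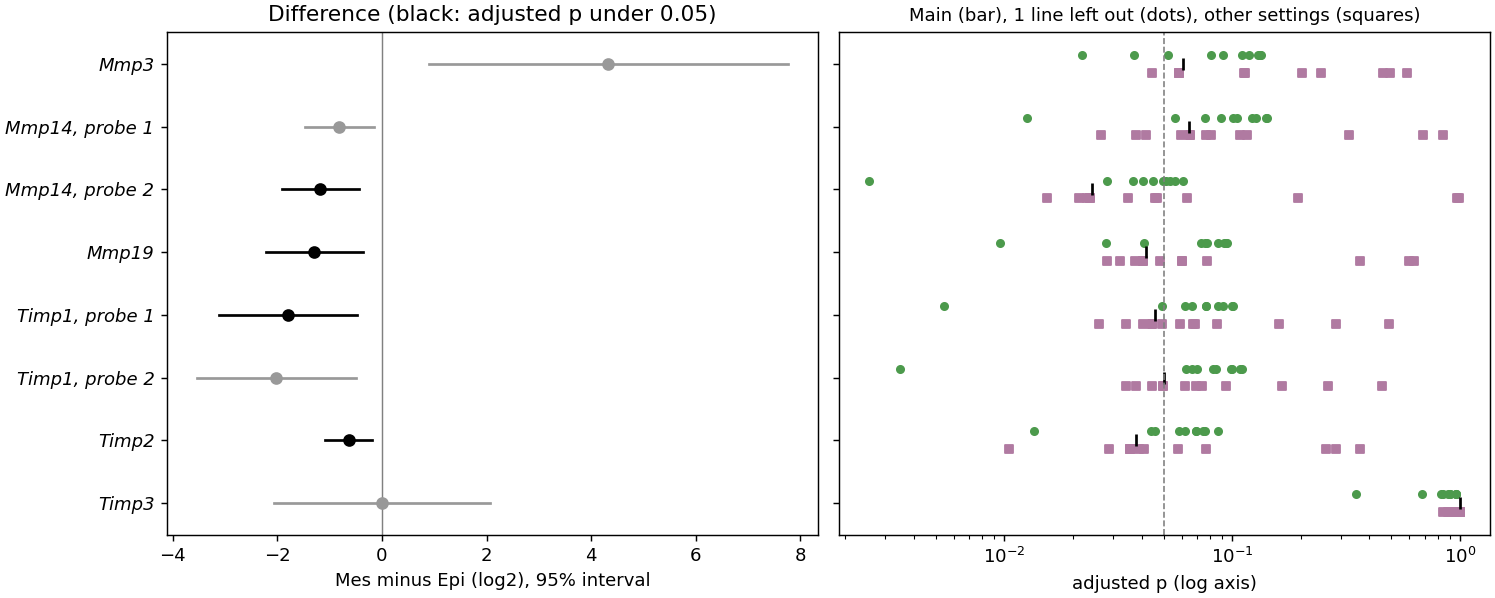
Left, the Mes minus Epi difference in log2 signal of the 8 tested probes with its 95% interval, in black where the adjusted p was under 0.05. Right, the adjusted p on a log axis for all lines (bars), for each line left out (dots) and for other processing settings (squares), with the 0.05 threshold dashed; the 4 called probes have values on both sides of it.

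Lines could also be read across the genes. Epi3, Epi4 and Epi5 shared Mmp2 above background, Mmp3 not above it, and the 3 highest readings of the brighter Mmp14 probe. Epi1 differed from them in having Mmp3 and Mmp9 above background and Mmp2 not. Epi2 had the Mmp14 and Mmp19 levels of the Mes lines and the Timp1 and Timp2 levels of the other Epi lines. Epi2 was also the only Epi line outside the first slide, so line and slide cannot be told apart there. Mes1 and Mes5 had Mmp2 above background, but Mes1 was highest and Mes5 lowest of the Mes lines in Timp1. Mes2 and Mes3 correlated at 0.986 over tested probes, and Epi3, Epi4 and Epi5 at 0.981 to 0.984 with each other, closer than any other pair (at most 0.969). With 1 line kept of each such set, 0 of the 8 probes were called (2 lower at an unadjusted p under 0.05).

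Genes with the most similar profiles over the 10 arrays were found for the called probes by the root mean square difference of centred log2 signals. For Mmp14 (dimmer probe) these were Neu1, a lysosomal sialidase, at 0.242 and Rep15 at 0.248. Mmp19 was nearest to Il18, an inflammatory cytokine, at 0.286 and to Pltp, a phospholipid transfer protein, at 0.301. Timp1 was nearest to Cish, a suppressor of cytokine signalling, at 0.480 and to Pkp2, a desmosome plaque protein, at 0.536. Timp2 was nearest to Reep3 at 0.137 and Tmem160 at 0.152.

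Of the rest of the family and Timp4, 15 of 17 listed genes were on the array, 7 were tested, 1 was lower in the Mes lines and 0 were higher (4 and 0 at an unadjusted p under 0.05), beside 12.7% and 15.7% of all tested genes. The median difference was -0.65, beside 0.03 for all tested genes. Mmp23, a membrane-bound member, was lower in the Mes lines (difference -3.31, SE 1.06, adjusted p = 0.0402). By the brightest tested probe, the next smallest adjusted p-values were those of Mmp28 (-0.94, adjusted p = 0.0523), Mmp24 (-0.65, adjusted p = 0.0579) and Mmp16 (-3.20, adjusted p = 0.0992), none of which passed. A dimmer Mmp28 probe was called lower in the Mes lines (-1.85, SE 0.37, adjusted p = 0.00547). That probe met the detection filter through the Epi lines, with 1 of 5 Mes lines above background. Mmp16 met the detection filter through the Epi lines, with 4 of 5 Mes lines above background. It read 0.91 in Mes1 and 7.75 to 9.36 in the other Mes lines.

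Among 29 genes whose products activate, bind or clear metalloproteinases, 19 were tested, 3 were lower in the Mes lines and 2 higher, with a median of -0.35. Both counts lie near the shares over all tested genes, 12.7% lower and 15.7% higher. Lrp1, an endocytic receptor that takes up proteases with their inhibitors, differed by -2.28 (SE 0.23, adjusted p = 0.000297). Reck, a membrane-anchored inhibitor of metalloproteinases, differed by -2.84 (SE 0.65, adjusted p = 0.0108). It met the detection filter through the Epi lines. With 4 of 5 Mes lines above background, the size of its difference rests in part on a Mes value below it. Pcsk7, a furin-like convertase, was higher in the Mes lines by 0.56 (SE 0.15, adjusted p = 0.0179). Pcsk7 lies on chromosome 9, where 60.3% of tested probes were higher in the Mes lines, and Lrp1 on chromosome 10, where 39.1% were lower. The part of these shifts in the differences of Pcsk7 and Lrp1 was not tested.

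Of 28 substrates, 22 were tested, 7 were lower in the Mes lines and 0 higher (8 and 1 at an unadjusted p under 0.05), with a median of -0.67. Over all tested genes 12.7% were lower and 15.7% higher, and the median was 0.03. The 4 with the smallest adjusted p were collagen chains. Col1a2, of fibrillar collagen I, averaged 9.33 ± 2.54 in the Mes and 17.65 ± 0.56 in the Epi lines (SD, n = 5), a difference of -8.31 (SE 1.02, adjusted p = 0.000648). Col1a1 differed by -7.41 (SE 1.22, adjusted p = 0.00234). The basement membrane chains Col4a1 and Col4a2 differed by -4.75 (SE 0.73, adjusted p = 0.00173) and -4.24 (SE 0.66, adjusted p = 0.00181).

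Of 31 transcription factors known to act on metalloproteinase promoters, 29 were tested, 5 were higher in the Mes lines and 7 lower, with a median of 0.17, beside 15.7% higher and 12.7% lower of all tested genes. Stat3, a cytokine-activated factor, differed by -1.08 (SE 0.18, adjusted p = 0.00224). Ets1, which binds ETS motifs, was higher by 1.09 (SE 0.20, adjusted p = 0.00356), and Ctnnb1, the Wnt coactivator beta-catenin, by 0.60 (SE 0.12, adjusted p = 0.00617). Batf3, a partner of Jun proteins at AP-1 motifs, was higher by 2.24 (SE 0.47, adjusted p = 0.00732). The other listed Fos, Jun and Atf genes went both ways. Fos differed by -2.02 (SE 0.50, adjusted p = 0.0151) and Fosb by 0.78 (SE 0.25, adjusted p = 0.0378). Jun, Junb, Jund, Fosl1, Fosl2 and Atf3 were not called. Ets1 and Ctnnb1 lie on chromosome 9, and the part of its shift in their differences was not tested.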

How the data were processed

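RNA of 10 lines, 5 per group by the labels, was hybridised to 10 single-colour arrays. Per the file headers, the scanner files hold background-subtracted intensity values made with Feature Extraction 10.7.3.1 and probe positions on NCBI37 (mm9); a further deposited table holds log2 values that, per the labels, were quantile-normalized in GeneSpring 11.0. The processed intensities of 43379 spots that are no controls were averaged per probe (41174 probes), quantile-normalized, raised to a floor of 1 and put on a log2 scale; outlier spots (46 to 87 per array) were left out, and 65 probes had a missing value on at least 1 array. They correlated at 0.9996 or more with the authors' deposited log2 values. The scanner software's calls above background, a deposited flag, set the detection filter. The number of arrays limits the precision.

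Groups were compared with limma 3.58.1 (lmFit and eBayes, R 4.3.3) over all 24475 tested probes with Benjamini-Hochberg adjustment and a threshold of 0.05, and the script was checked on simulated data. Probe symbols were updated through the Entrez ID for 33405 probes and kept for 1488; 6281 had none. The members and gene lists were chosen with earlier results of these data known. All members were named, with up to 4 genes of each list by adjusted p, the 4 nearest tested neighbours of the chromosome 9 cluster by their brightest tested probe (Dync2h1, the third gene called higher, was added after its values were seen), and the 2 genes most like each called probe. The dimmer Mmp28 probe and the other Fos, Jun and Atf genes were added beyond this rule. Alternatives were normalization, background correction, the deposited tables, the filter, the floor, slide, replicate number and each line left out. The positions of probes within exons and protein motifs were not analysed here. One listed gene that the rule would name is not reported here.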

Additional observations from a re-analysis of the deposited data

Results flagged for a closer look

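Epi1 stood apart from the other Epi lines in Mmp9 on both probes. It read 4.27 on probe A_51_P401797, where the next Epi line read 0.68, and 3.92 on probe A_52_P507214, where the next read 0.99. The gap took 0.957 and 0.855 of the group's range, above the limit of 0.71 for 5 samples. Epi1 was also the Epi line with the highest Mmp3 (6.49). In Timp3, Mes4 read 7.77 and the next lowest Mes line 11.54, a gap of 0.802 of the range. By chance about 1 in 20 groups would be picked out by this rule, and 26 sets of a probe and a group were examined, and the Mmp9 probes read the same gene. The causes were not tested.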

How the results depend on the processing

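Limits come first. Slide and group largely coincide, so a slide effect and a group effect can be told apart only through 3 arrays of the second slide. Genes near background (Mmp2, Mmp9, Mmp10, Mmp13, and Mmp3 in the Epi lines) have values with no order below it. All calls on the members lie near the threshold, so their counts move with small changes. The 6770 calls over all probes became 4815 to 7433 with a line left out, 179 with slide as a fixed block, 0 within the second slide (limma; 4267 at an unadjusted p under 0.05) and 1375 with 1 line of each closely correlated set, an alternative chosen after seeing the data. The 4 member probe calls became 2 with normexp correction and 2 with a floor of 16, 1 with dim probes kept, 7 when slide was a random block (6 lower and Mmp3 higher; its estimated correlation was -0.0434), and 0 with slide as a fixed block (0 at an unadjusted p under 0.05), within the second slide (3) and with 1 line of each correlated set (2). They numbered 0 to 6 with a line left out. The 3 calls by gene, a count chosen after seeing the data, became 1, 1, 0, 5, 0, 0 and 0 under the same 7 settings (5, 0, 2 and 1 at an unadjusted p under 0.05 where 0), and 0 to 4 with a line left out. Keeping dim probes raised the number of tests; the other causes were not tested. Scaling by the 75th percentile gave 6 probe calls, and 5 came from the deposited log2 values. Both Mmp14 probes turned direction with slide as a fixed block and within the second slide (0.021 and 0.22). Timp3 (0.0046 over all lines) changed sign with 75th percentile scaling (-0.050), with slide as a fixed block and within the second slide (-0.65), with 1 line of each correlated set (-0.48), and over the range from -0.33 to 0.86 with a line left out. Same-numbered lines did not deviate together (correlations 0.014 to 0.0434), so they share only a number; with the replicate block 5266 probes were called in all, and 1 member probe and 1 gene (Mmp19, adjusted p = 0.0282). No line had its own number as its best partner across the groups except Mes1.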

Other observations

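Mmp2, above background in 5 lines of both labels, was followed further after its values were seen. The 3 genes with the nearest profiles over the 10 arrays, among genes above background on any array, were Ch25h, a cholesterol hydroxylase, Nol3, an inhibitor of cell death, and Bicc1, an RNA-binding protein, with root mean square differences of 1.68, 1.70 and 1.70. Nol3 read 8.40, 2.97, 3.29, 3.82 and 9.95 in Mes1 to Mes5 and 5.69, 8.89, 10.56, 11.21 and 10.89 in Epi1 to Epi5. Its 3 lowest lines, Mes2, Mes3 and Mes4, were among the 5 with Mmp2 not above background. Nol3 was chosen by likeness over these same values, so such overlap is built in. Epi2, also with Mmp2 not above background, read higher in Nol3 (8.89) than Mes1 (8.40), where Mmp2 was above it. These are descriptions with no test. The root mean square differences are larger than those of the called probes but are not scaled to each probe's spread. That spread over the 10 lines was 7.81 log2 units for Mmp2 and 1.52 for Timp2.

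Of the genes within 200 kb of the Mmp2 probe by the deposited coordinates, Slc6a2, the noradrenaline transporter 148.3 kb away, read 3.59, 0.33, 0.31, 0.37 and 6.33 in Mes1 to Mes5 and 0.35, 1.73, 2.73, 5.88 and 2.27 in Epi1 to Epi5. Its highest lines were among those with Mmp2 above background. Lpcat2, which makes membrane phospholipids and lies between them at 65.4 kb, read 7.87 in Mes1 and 4.95 to 6.10 in the other 9 lines, with all 10 above background. Mmp15, a membrane-type metalloproteinase, was above background in 3 Mes lines and in 0 of 5 Epi lines, and was not tested.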
